A study of Homo sapiens with 4 samples.

Results

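The Rab genes encode the largest branch of the small GTPases, and were taken here as all protein-coding genes whose symbol is RAB followed by a number and at most 1 letter. They are 63 of the 58735 genes measured. Each Rab protein cycles between a GTP-bound form on a membrane, where it recruits effectors, and a GDP-bound form that is pulled into the cytosol. Exchange factors (GEFs) load GTP, GTPase-activating proteins (GAPs) end the active state, and lipid tails added by a geranylgeranyl transferase hold the protein on the membrane. Different Rabs sit on different compartments, and a compartment can hold several. The family is read as a map of the routes from the endoplasmic reticulum (ER) through the Golgi, endosomes and lysosomes to the cell surface.

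RNA was sequenced from SUP-M2, a human line of ALK-positive anaplastic large cell lymphoma (ALCL), in 4 libraries made from total RNA. The 2 shscramble libraries carried a scrambled short hairpin, with the genotype given as control. The 2 shGOLM1 libraries carried a hairpin against GOLM1, a membrane protein of the Golgi, and their genotype is given as a knockout although their titles name a hairpin. The labels do not say whether the 2 shGOLM1 libraries share a hairpin, nor that replicates came from separate cultures, so p-values here measure only the spread between these libraries.

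Library totals were 27544171 to 31972153 counts. Levels are given as CPM, counts relative to a library total scaled by TMM (a factor that aligns most genes between libraries), and as FPKM, the authors' own value per length of gene, where genes are compared with each other. Values per library are given in the order shscramble replicate 1, shscramble replicate 2, shGOLM1 replicate 1, shGOLM1 replicate 2. GOLM1 (ENSG00000135052, chr9:86026146-86100173 on GRCh38) stood at 212, 213, 69.5 and 69.4 CPM, lower in both shGOLM1 libraries (log2 fold change -1.61 ± 0.27 SE; edgeR quasi-likelihood test, adjusted p = 0.42; DESeq2 adjusted p = 0.0204). All 8 ALCL markers fixed for the check (among them ALK, TNFRSF8 and GZMB) were at 1 CPM or more in every library, and none of 5 B cell and 5 fibroblast markers was. Their levels still differed widely, with TNFRSF8 (CD30) at 634, 614, 538 and 88.3 CPM and PRF1 at 2.91, 2.7, 620 and 145 CPM. Of 5 myeloid markers, CSF1R stood at 235, 242, 309 and 231 CPM in the 4 libraries, the other 4 were under 1 CPM, and SPI1 was at 0. The shGOLM1 replicate 2 library stood apart. Mitochondrially encoded genes took 0.455% of its counts, against 1.95% in shGOLM1 replicate 1 and 2.24% to 2.38% in shscramble, and their part in the Rab results was not tested.

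Rab transcripts took 0.212% and 0.21% of counts in shscramble and 0.201% and 0.224% in shGOLM1. After TMM scaling the summed Rab level was 2074, 1993, 1791 and 2709 CPM, and the summed FPKM 602, 572, 475 and 867. The sums were lowest in shGOLM1 replicate 1 and highest in shGOLM1 replicate 2. Of the 63 genes, 57 had a count in some library and 6 had 0 counts in all 4 (RAB25, RAB36, RAB39A, RAB39B, RAB3B and RAB40B). A count of 0 allows up to 3 counts, or 0.0938 to 0.109 CPM of the library total, and covers counting error only. The filter on low counts left 45 Rab genes for testing, and the other 12 with counts reached at most 1.49 CPM (RAB7B, 34 counts in shGOLM1 replicate 2).

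**Figure D1:**
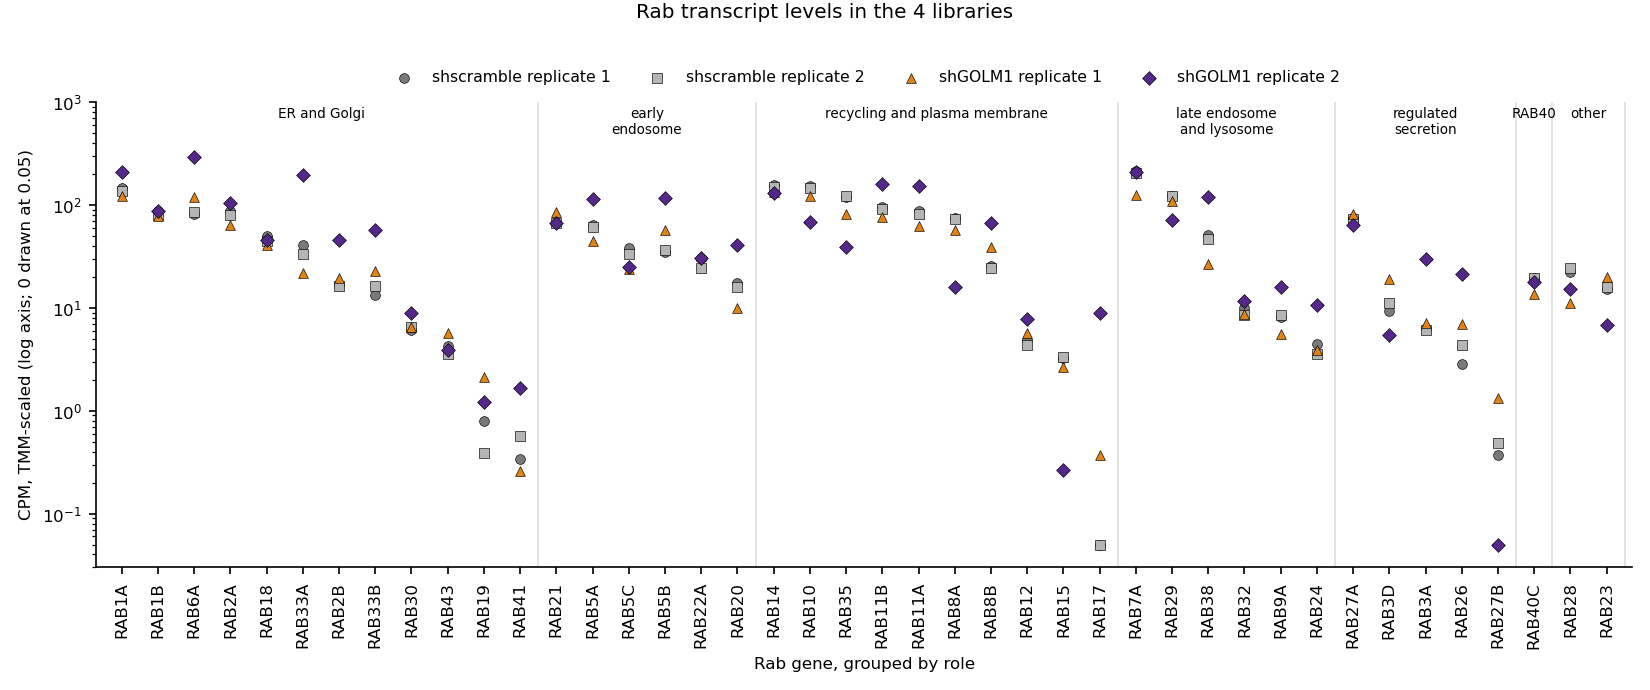
Level of each Rab gene in each library in CPM on a log axis, for the 42 tested genes that reach at least 1 CPM in some library, grouped by role and ordered by their shscramble mean. Grey points are shscramble and coloured points shGOLM1, each point is 1 library, and RAB17 at 0 in shscramble is drawn at 0.05.

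No Rab gene passed the planned test. With edgeR's quasi-likelihood test at an adjusted p under 0.05, 0 of 45 were called, against 0.0% of all 14166 genes tested, and the smallest adjusted p among them was 0.42. Without adjustment, 5 of 45 (11.1%) had p under 0.05, beside 1668 of the 14166 genes (11.8%). DESeq2 called 1 Rab gene, RAB17, against 3.88% of the 13891 genes to which it gave an adjusted p. RAB17 was also the 1 Rab gene called by edgeR without a filter on low counts (0.759% of all genes called), by edgeR's likelihood-ratio test (3.5%) and with the replicate number as a block (1.43%). Without the first or the second shscramble library 0 Rab genes were called, against 0.139% and 0.126% of all genes. In bulk RNA, fewer cells of a type and less RNA per cell cannot be told apart.

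The 2 shGOLM1 libraries were on the same side of the controls for 20 of the 45 tested genes and on opposite sides for 15. Both shGOLM1 libraries lay above both shscramble libraries for 11 genes (24.4%, beside 25.2% of all genes tested) and below both for 9 (20%, beside 26.5%). The 11 include RAB17 and RAB37, which entered the tested set only through their shGOLM1 counts. For the 15 on opposite sides (33.3%, beside 33.1%) 1 shGOLM1 library lay above both controls and the other below both, and for 10 the groups overlapped. The shares of higher and opposite-side genes are near those of all genes. Library totals without TMM factors gave 12 higher, 11 lower, 17 on opposite sides and 5 overlapping, beside 23.4%, 26.7%, 34.1% and 15.8% of all genes, with RAB18, RAB1B, RAB21, RAB22A, RAB2A, RAB30, RAB43, RAB7A and RAB9B changing class.

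Differences were larger in shGOLM1 replicate 2 than in replicate 1. On log2(CPM + 0.5), the median absolute difference of a tested Rab gene from the shscramble mean was 0.44 in replicate 1 and 0.84 in replicate 2, against 0.10 between the shscramble libraries. The same medians over all tested genes were 0.43, 0.82 and 0.13. A difference of at least 1 was reached by 2 of 45 Rab genes in replicate 1 (4.44%, beside 11.9% of all genes) and 18 in replicate 2 (40%, beside 41% of all genes). Set alone against the same 2 shscramble libraries, replicate 1 gave 24 called of 47 Rab genes (9 higher, 15 lower), beside 44.5% of all genes (20.4% higher, 24.1% lower), and replicate 2 gave 34 of 50 (23 higher, 11 lower), beside 67.4% of all genes (33.3% higher, 34.1% lower). Those edgeR fits take the spread from the controls only and assume that the lone library varies like them.

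**Figure D2:**
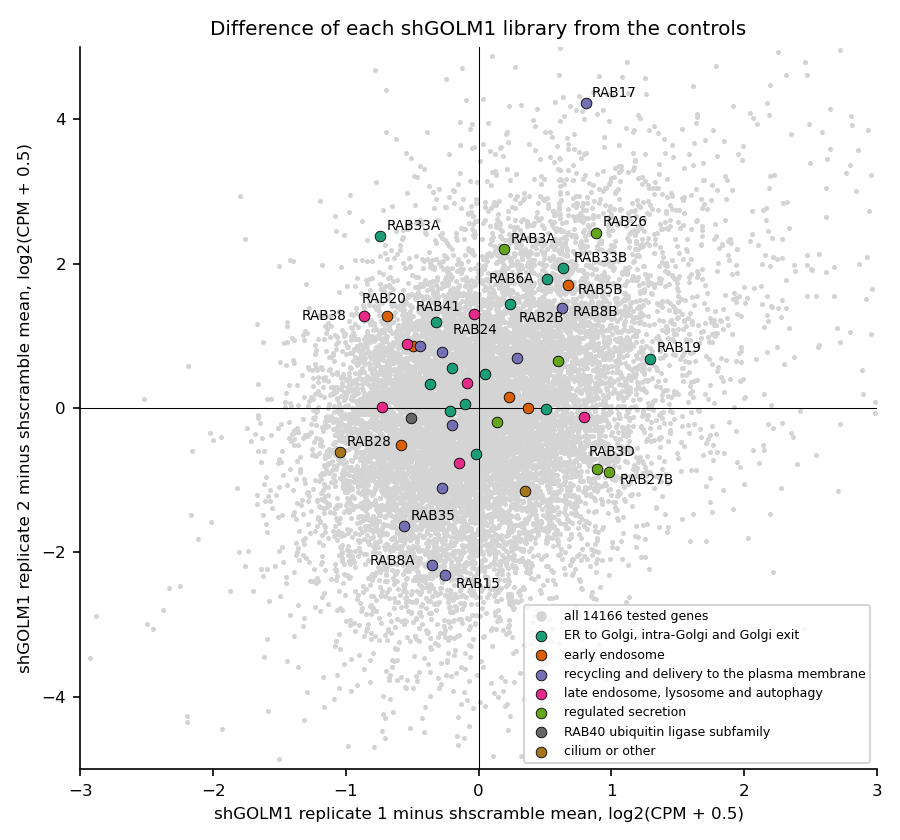
Difference of each gene from the mean of the shscramble libraries on log2(CPM + 0.5), in shGOLM1 replicate 1 (horizontal) and replicate 2 (vertical), with 45 tested Rab genes coloured by role over all 14166 tested genes in grey, of which 78 lie outside the axes. Rab points reach from -1.04 to 1.29 horizontally and from -2.31 to 4.23 vertically, and both axes subtract the same controls.

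Paralogs that share a compartment were compared within each library. The sequences just before the starts of RAB5B, RAB5C and RAB8B are printed because these genes belong to the pairs whose ratio differed most plainly between groups. They are RefSeq sequences of GRCh38.p14, 5′ to 3′ on the gene's strand, limited to bases before the gene start in both RefSeq and GENCODE 29. Capitals mark matches on either strand to CCAAT or to TGANTCA.
RAB5B, chr12:55973699-55973912, plus strand, higher in both shGOLM1 libraries: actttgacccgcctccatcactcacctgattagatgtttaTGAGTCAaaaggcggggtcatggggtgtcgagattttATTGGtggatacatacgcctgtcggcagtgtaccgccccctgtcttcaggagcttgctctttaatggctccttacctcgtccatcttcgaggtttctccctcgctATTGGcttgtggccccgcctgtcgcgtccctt
RAB5C, chr17:42155045-42155239, minus strand, lower in both: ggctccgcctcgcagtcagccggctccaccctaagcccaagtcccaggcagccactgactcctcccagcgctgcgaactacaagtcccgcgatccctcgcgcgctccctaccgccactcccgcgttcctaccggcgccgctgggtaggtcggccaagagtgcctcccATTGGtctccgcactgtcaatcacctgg
RAB8B, chr15:63189356-63189468, plus strand, higher in both: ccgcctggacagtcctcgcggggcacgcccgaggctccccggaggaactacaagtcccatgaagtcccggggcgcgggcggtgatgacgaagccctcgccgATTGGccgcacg

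The stretches hold 53.7% (RAB5B), 67.7% (RAB5C) and 71.7% (RAB8B) G and C. Searched over the whole 250 bases before the RefSeq start on both strands, CCAAT was found in 28.6% of the 35 tested Rab genes with a listed promoter and in 33.0% of all 27305 promoters. It was found before 3 of 7 genes higher in both shGOLM1 libraries (RAB2B, RAB5B and RAB8B) and 3 of 8 genes lower in both (RAB40C, RAB5C and RAB8A). CACGTG was found in 8.57% of the 35 and 6.49% of all, ACGTG, which CACGTG contains, in 28.6% and 18.7%, and TGANTCA in 2.86% and 6.6%. The median G and C content was 65.6% in the 35 and 58.0% in all, and its part in these matches was not tested. The motifs were picked after the values were seen, and a match is a description of letters only. In all, 50 of the 63 Rab genes had an entry.

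RAB8A and RAB8B both deliver cargo from the Golgi and recycling endosomes to the plasma membrane. RAB8A (ENSG00000167461, chr19:16111629-16134234) stood at 74.3, 73.1, 57.6 and 15.9 CPM. RAB8B (ENSG00000166128, chr15:63189469-63267782) stood at 25.9, 24.6, 39.3 and 66.8 CPM. RAB8A lay below the controls in both shGOLM1 libraries and RAB8B above them, without overlap. Their log2 fold changes were -1.0 ± 0.67 (SE) and 1.07 ± 0.38, with edgeR adjusted p = 0.564 and 0.421. Per length, RAB8B had 0.348 and 0.336 of the RAB8A FPKM in shscramble, 0.68 in shGOLM1 replicate 1 and 4.19 in replicate 2. The summed level of the 2 genes differed less, at 100, 97.7, 96.9 and 82.7 CPM. Sums of RAB5A, RAB5B and RAB5C were not near level, at 138, 132, 125 and 257 CPM. Nor were those of RAB2A and RAB2B, at 105, 95.6, 84.2 and 151 CPM. In GENCODE 29, 41.7% of the RAB8A exon bases overlap exons of another gene: 3.99% are shared with HSH2D on the same strand (22, 23, 82 and 54 counts) and most of the rest with AC008894.2 on the other strand (1, 1, 2 and 0 counts). It is not known here whether reads were counted by strand.

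The RAB5 genes act on early endosomes, where they direct the fusion of incoming vesicles. RAB5B (ENSG00000111540, chr12:55973913-55996683) stood at 34.7, 36.7, 57.1 and 117 CPM, a mean of 35.7 ± 1.38 (SD, n = 2) against 87.1 ± 42.3. RAB5C (ENSG00000108774, chr17:42124976-42155044) stood at 38.5, 33.7, 23.9 and 25.2 CPM. Their groups did not overlap, in opposite directions. The log2 fold changes were 1.29 ± 0.44 (SE; edgeR adjusted p = 0.42) and -0.56 (edgeR adjusted p = 0.491). RAB5A, the paralog of both, stood at 64.3, 61.6, 44.5 and 115 CPM, below the controls in 1 shGOLM1 library and above them in the other. The FPKM ratio of RAB5B to RAB5C was 0.378 and 0.456 in shscramble and 1 and 1.95 in shGOLM1. The ratio of RAB5B to RAB5A was 0.31, 0.342, 0.737 and 0.585, and that of RAB5C to RAB5A 0.822, 0.751, 0.736 and 0.3. Both of these also separated the groups. Of the RAB5C exon bases, 28.8% are shared on the same strand with AC099811.2, which had 0 counts in every library.

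Across the family, 9 paralog pairs from 7 Rab numbers had both members tested and at 1 FPKM or more in shscramble, and the ratio separated the groups in 5. These include every ratio among RAB5A, RAB5B and RAB5C, which share members and are not independent. A share over other gene pairs was not computed. Of all single genes tested, 25.2% were higher and 26.5% lower in both shGOLM1 libraries without overlap. With 2 libraries against 2, the smallest p that an exact permutation test can give is 0.333, so no ratio could pass one. The fifth separated ratio was RAB2B to RAB2A, both of the early secretory route, at 0.299, 0.32, 0.473 and 0.68. RAB33B to RAB33A (0.0812, 0.121, 0.263 and 0.074) and RAB3D to RAB3A (0.609, 0.756, 1.12 and 0.0747) were above both controls in shGOLM1 replicate 1 and below both in replicate 2. RAB11A to RAB11B kept to 0.352 to 0.421 in all 4 libraries.

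**Figure D3:**
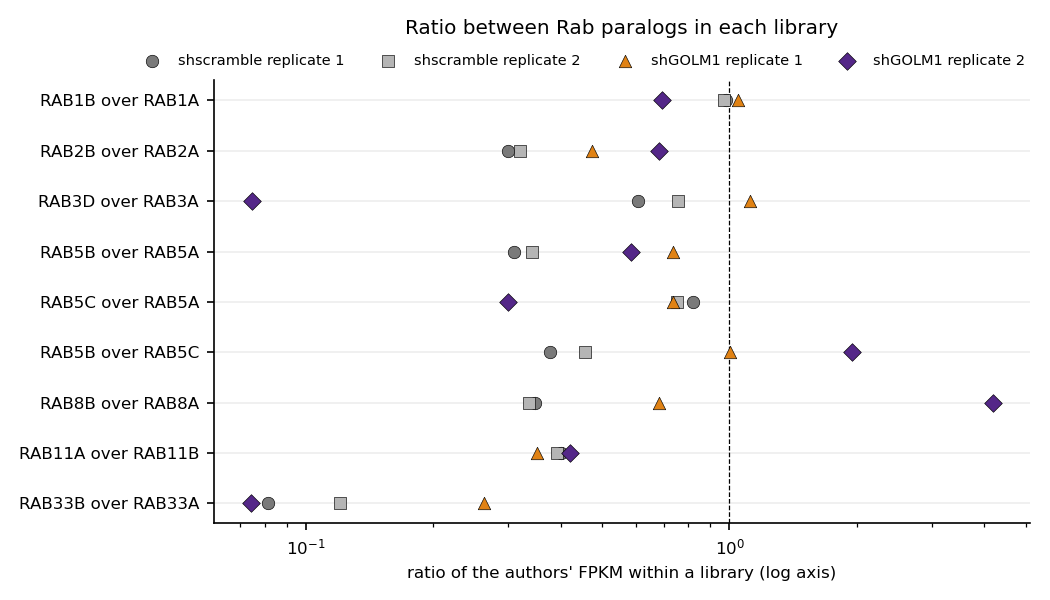
Ratio of the authors' FPKM between Rab paralogs within each library on a log axis, 1 point per library, for 9 pairs. RAB8B over RAB8A runs from 0.336 to 4.19 and RAB5B over RAB5C from 0.378 to 1.95, with both shGOLM1 libraries to the right of both shscramble libraries.

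Of 17 Rabs assigned to the ER, the Golgi and Golgi exit, 13 were tested, with 4 higher in both shGOLM1 libraries, 0 lower in both, 5 on opposite sides and 4 overlapping, beside 25.2% higher, 26.5% lower and 33.1% on opposite sides among all genes. RAB6A (ENSG00000175582, chr11:73675638-73761137), which governs traffic within and out of the Golgi, stood at 82.4, 85, 120 and 291 CPM. Its mean was 83.7 ± 1.85 (SD, n = 2) in shscramble and 205 ± 121 in shGOLM1, 2.45-fold apart (log2 fold change 1.29 ± 0.51 SE, edgeR adjusted p = 0.431, DESeq2 adjusted p = 0.272). Both shGOLM1 libraries lay above both controls. RAB6C, a near copy of RAB6A whose reads could be split with it, had 2 to 28 counts. RAB33B (ENSG00000172007, chr4:139453232-139476609), a medial Golgi Rab that binds the autophagy factor ATG16L1, stood at 13.4, 16.2, 23.1 and 57.9 CPM (log2 fold change 1.45 ± 0.54 SE, edgeR adjusted p = 0.423). Its groups did not overlap either. Of its exon bases, 13.8% overlap AC097376.2 (44, 32, 56 and 15 counts).

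RAB33A (ENSG00000134594, chrX:130171649-130184870), its paralog, stood at 41.1, 33.7, 22 and 196 CPM. Replicate 1 lay below both controls and replicate 2 far above them. Alone against the shared controls, replicate 1 gave a log2 fold change of -0.78 and replicate 2 gave 2.34. With both libraries the value was 1.54 ± 1.04 (SE; edgeR adjusted p = 0.566). By FPKM, RAB33A ranked 8, 10 and 11 among the Rabs in the first 3 libraries and 1 in shGOLM1 replicate 2, at 151 FPKM against 17 to 32.4.

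RAB1A and RAB1B tether vesicles between the ER and the Golgi. RAB1A was split between the shGOLM1 libraries, with log2 fold changes of -0.22 and 0.51 for replicates 1 and 2 alone. It stood at 146, 137, 123 and 209 CPM (log2 fold change 0.23 ± 0.37 SE, edgeR adjusted p = 0.803). RAB1B stood at 86.8, 80.7, 78 and 87.4 CPM, a spread too small to order the groups, and -0.02 with adjusted p = 0.984 in the same edgeR test. RAB2A stood at 87.9, 79.4, 64.7 and 105 CPM (0.03; edgeR adjusted p = 0.982). For each of these 3 genes the shGOLM1 libraries lay on either side of the controls.

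Of 7 early endosome Rabs, 6 were tested, and besides the RAB5 genes they include RAB20, RAB21 and RAB22A. RAB20, which takes part in phagosome maturation, stood at 17.3, 15.9, 10.1 and 40.9 CPM. Its shGOLM1 libraries were again on opposite sides (log2 fold change 0.62, edgeR adjusted p = 0.726; -0.73 and 1.25 for replicates 1 and 2 alone). RAB21 and RAB22A overlapped between groups.

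Of 14 Rabs of recycling and delivery to the plasma membrane, 10 were tested, with 3 higher (RAB8B, RAB12 and RAB17) and 5 lower (RAB8A, RAB10, RAB14, RAB15 and RAB35) in both shGOLM1 libraries and 2 on opposite sides, beside 25.2% higher, 26.5% lower and 33.1% on opposite sides among all genes. All 5 that were lower had an edgeR adjusted p of 0.458 or more. RAB35 (ENSG00000111737, chr12:120095095-120117502), a Rab of fast recycling and of cytokinesis, stood at 121, 123, 82.5 and 39 CPM. The mean was 122 ± 1.52 (SD, n = 2) in shscramble and 60.7 ± 30.8 in shGOLM1, 2.01-fold lower (log2 fold change -1.0 ± 0.45 SE, edgeR adjusted p = 0.458, DESeq2 adjusted p = 0.436). Alone, replicates 1 and 2 gave -0.58 and -1.69 against the same controls. RAB10, which brings GLUT4 and other cargo to the surface, stood at 153, 147, 124 and 69.1 CPM (log2 fold change -0.64, edgeR adjusted p = 0.537). In both genes the groups did not overlap and shGOLM1 replicate 2 was the lowest.

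RAB11A and RAB11B, the Rabs of the slow recycling endosome, were on opposite sides. RAB11A stood at 87.5, 81.7, 62.1 and 154 CPM, and RAB11B at 95.2, 90.9, 76.8 and 159 CPM. The log2 fold changes were 0.35 (edgeR adjusted p = 0.779) and 0.34 (0.749). Both genes were lower than the controls in shGOLM1 replicate 1 and higher in replicate 2.

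RAB17 (ENSG00000124839, chr2:237574322-237601614), known from apical recycling in epithelial cells, was the Rab gene called by DESeq2. It had 0 and 0 counts in shscramble and 13 and 202 in shGOLM1, or 0.374 and 8.86 CPM. Against a limit of 3 counts per shscramble library, its mean was at least 50.7-fold higher in shGOLM1, at least 4.11-fold in replicate 1 and at least 97.3-fold in replicate 2. The adjusted p was 0.000124 by DESeq2 and 0.42 by edgeR's quasi-likelihood test, and it reached 0.489 among the alternatives. RAB17 entered the tested set only through its shGOLM1 counts, so these p-values are given as descriptions and are not support for a rise. Without shGOLM1 replicate 2 it did not pass the filter on low counts. In the authors' deposited table its adjusted p was 0.105, the smallest of 57 Rab genes, of which 0 were under 0.05. The 5 epithelial markers summed to 0.398, 0.601, 0.605 and 3.16 CPM, with KRT8 the only one at 1 CPM or more (2.37 CPM in shGOLM1 replicate 2), EPCAM at 0, 0, 1 and 0 counts, CDH1 at 0, 1, 0 and 0, and KRT19 at 0 in all.

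Late endosome, lysosome and autophagy Rabs numbered 10, of which 7 were tested, with 0 higher and 1 lower (RAB29) in both shGOLM1 libraries, 2 on opposite sides and 4 overlapping, beside 25.2% higher, 26.5% lower and 33.1% on opposite sides among all genes. RAB7A (ENSG00000075785, chr3:128726122-128814796), the main Rab of late endosomes and lysosomes, was the most abundant Rab per length in the first 3 libraries, at 78.5, 74.2 and 45.2 FPKM, and ranked 3 in shGOLM1 replicate 2 at 76 FPKM. In CPM it stood at 215, 204, 126 and 212, low in shGOLM1 replicate 1 alone (log2 fold change -0.31, edgeR adjusted p = 0.733; -0.75 and -0.03 for each replicate alone). RAB38, which sends enzymes to melanosomes and related lysosomal organelles, stood at 51.1, 47, 26.7 and 119 CPM. It followed RAB33A in its split, at -0.89 and 1.24 on the log2 scale for replicates 1 and 2 alone (0.58 together, edgeR adjusted p = 0.755), and ranked 7, 7, 10 and 2 by FPKM.

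Regulated secretion Rabs direct the docking of stored granules, and 6 of 9 were tested, with 3 higher in both shGOLM1 libraries (RAB3A, RAB26 and RAB37), 0 lower and 3 on opposite sides, beside 25.2% higher, 26.5% lower and 33.1% on opposite sides among all genes. RAB37 had 7, 0, 14 and 10 counts and entered the tested set only through its shGOLM1 counts. RAB26 (ENSG00000167964, chr16:2140803-2154165), a Rab of secretory granules, stood at 2.88, 4.33, 6.97 and 21.2 CPM (log2 fold change 1.97 ± 0.70 SE, edgeR adjusted p = 0.421, DESeq2 adjusted p = 0.112). RAB3A (ENSG00000105649, chr19:18196784-18204074), best known from synaptic vesicles, stood at 6.25, 6.04, 7.09 and 30 CPM (1.59 ± 0.77 SE, edgeR adjusted p = 0.478). The RAB3A difference came almost whole from replicate 2: alone, replicate 1 gave 0.19 and replicate 2 gave 2.24. RAB27A, which docks cytotoxic granules in T and NK cells, was near level at 74.9, 72.5, 81.3 and 64.6 CPM (-0.01, edgeR adjusted p = 0.988), and its 2 shGOLM1 values lay on either side of the controls.

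The remaining tested Rabs included RAB28 and RAB23, both linked to the cilium, and RAB40C, of a subfamily that joins ubiquitin ligases. RAB28 stood at 22.4, 24.6, 11.1 and 15.2 CPM, lower in both shGOLM1 libraries (log2 fold change -0.83 ± 0.35 SE, edgeR adjusted p = 0.447). RAB40C was lower in both by less, at 19.8, 19.5, 13.6 and 17.8 CPM (-0.32, edgeR adjusted p = 0.702), while RAB23 was split at 15.3, 15.9, 20 and 6.76 CPM (-0.22, adjusted p = 0.893). The only other RAB40 gene with counts, RAB40A, had 6 counts in shGOLM1 replicate 1 and 0 elsewhere. The 20 tested Rab genes outside the rule for named genes had log2 fold changes of -1.14 to 1.94, with edgeR adjusted p from 0.474 to 0.891. Exons of another gene cover, on either strand, 57.7% of the exon bases of RAB23, 42.6% of RAB1B, 14.8% of RAB35 and 9.08% of RAB3A, so their counts could hold reads of neighbours or lack shared ones.

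Shares of the summed Rab FPKM were alike in the 2 shscramble libraries. The ER and Golgi share and the recycling share differed from them most in shGOLM1 replicate 2. The late endosome share and the regulated secretion share differed most in shGOLM1 replicate 1. ER and Golgi Rabs made up 28%, 27.2%, 30.9% and 42.2% of the Rab FPKM. Recycling and plasma membrane Rabs made up 30.3%, 30.9%, 30.6% and 19.3%. The summed FPKM of ER and Golgi Rabs was 169, 156, 147 and 366, of which RAB33A gave 151 in shGOLM1 replicate 2. Without RAB33A, a value added after the data were seen, the ER and Golgi share was 23.9%, 23.7%, 28.3% and 29.98%, and the recycling share 32.1%, 32.4%, 31.8% and 23.4%. The recycling sum itself was 183, 177, 145 and 167 FPKM, so its lower share in replicate 2 came with a larger Rab total and not with the lowest sum. Late endosome and lysosome Rabs held 26.3% and 26.1% in shscramble and 21.5% and 22.6% in shGOLM1. Without RAB33A their share was 27.8%, 27.4%, 22.3% and 27.3%, so that only shGOLM1 replicate 1 stood well below the controls. Their summed FPKM was 158, 150, 102 and 196, lowest in replicate 1 and highest in replicate 2. Regulated secretion Rabs held 3.31%, 3.56%, 5.29% and 4.27%, and without RAB33A 3.50%, 3.73%, 5.49% and 5.17%.

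**Figure D4:**
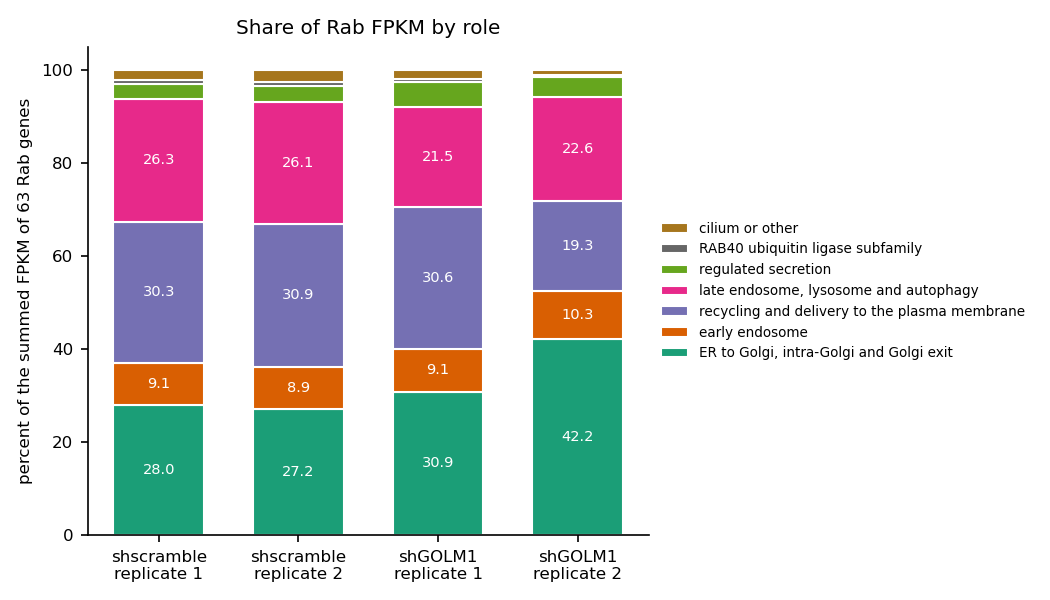
Percent of the summed authors' FPKM of the 63 Rab genes held by each role group, 1 bar per library. The ER and Golgi segment is 27.2% to 30.9% in 3 libraries and 42.2% in shGOLM1 replicate 2, where RAB33A alone stands at 151 FPKM and recycling and plasma membrane Rabs fill 19.3%.

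The genes that act on Rabs were read from a list of 121, of which 102 were tested. With edgeR 0 of 102 were called (0.0% of all genes), with 13 at an unadjusted p under 0.05 (12.7%). Both shGOLM1 libraries lay above both controls for 33 of the 102 (32.4%, beside 25.2% of all genes), below for 19 (18.6%, beside 26.5%) and on opposite sides for 34 (33.3%, beside 33.1%). The 33 include RPH3AL, LRRK2, ST5, RIMS1 and TBC1D10C, which entered the tested set only through their shGOLM1 counts. The list was also chosen with earlier results of these data known, so the shares are descriptions and are not support for a rise. The median log2 fold change of the 102 was 0.14, against 0.05 for all genes and 0.30 for the 45 Rabs. On log2(CPM + 0.5) the Rab median was -0.09 for shGOLM1 replicate 1 and 0.34 for replicate 2, beside -0.002 and -0.04 for all genes. With library totals in place of TMM the fitted Rab median was 0.17, beside -0.03 for all genes. DESeq2 called 6, all higher in shGOLM1 (5.88%, beside 3.53% of all genes called higher), and no edgeR adjusted p among them was under 0.42. Of the 6, LRRK2 and RPH3AL entered the tested set only through their shGOLM1 counts, so the share of 5.88% is a description only.

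Of the 34 GEFs, 29 were tested and DESeq2 called 3 higher in shGOLM1, beside 3.53% of all genes called higher. The planned edgeR test called 0 of the 29. DENND1C, of the DENND1 family that activates RAB35, stood at 3.34, 4.33, 32.9 and 39.7 CPM (log2 fold change 3.24 ± 0.38 SE, DESeq2 adjusted p = 1.48e-07, edgeR adjusted p = 0.42). DENND3, the GEF of RAB12, stood at 7.35, 8.62, 32.3 and 96.4 CPM (3.01 ± 0.64, DESeq2 adjusted p = 0.000629), and SBF2 at 3.74, 4.36, 9.56 and 24.1 CPM (DESeq2 adjusted p = 0.0466). The edgeR adjusted p was 0.42 for DENND3 and for SBF2. In DENND1C the 2 shGOLM1 libraries lay closer to each other than in DENND3 or SBF2. RAB12 itself stood at 4.87, 4.36, 5.73 and 7.76 CPM. DENND6B stood at 25.6, 22.5, 41.6 and 54.5 CPM and did not pass either test.

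Of the 37 GAPs, 33 were tested, with 13 higher and 4 lower in both shGOLM1 libraries, beside 25.2% and 26.5% of all genes. The 13 include TBC1D10C, which entered the tested set only through its shGOLM1 counts. Either tool called 0 GAPs, beside 0.0% of all genes with edgeR and 3.88% with DESeq2. TBC1D10B and TBC1D10A, GAPs that act on RAB35 among others, differed in direction. TBC1D10B stood at 97.6, 92.4, 56.5 and 21.5 CPM (log2 fold change -1.28, edgeR adjusted p = 0.443), and TBC1D10A at 3.4, 3.13, 4.23 and 22.5 CPM (2.03, edgeR adjusted p = 0.451). EVI5, a GAP linked to RAB11, was high in shGOLM1 replicate 1 (19, 18.2, 57.5 and 21.9 CPM), and TBC1D17 stood at 8.64, 7.69, 12 and 21.6 CPM.

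Of 42 effectors and other partners, 32 were tested and DESeq2 called 3 higher in shGOLM1, beside 3.53% of all genes called higher. The planned edgeR test called 0 of the 32. LRRK2, a kinase that phosphorylates several Rabs, had 3, 0, 191 and 392 counts (DESeq2 adjusted p = 7.98e-09, edgeR adjusted p = 0.42). MICALL2, which binds RAB8 and RAB13, stood at 2.11, 2.67, 7.23 and 15.6 CPM (DESeq2 adjusted p = 0.0238). RPH3AL, an effector of RAB3 and RAB27 that fell outside the rule for named genes and was singled out after its values were seen, had 0, 0, 55 and 49 counts (DESeq2 adjusted p = 0.000392). MICAL1 stood at 32.3, 31.9, 54.9 and 110 CPM, and EHBP1, a partner of RAB8 and RAB10, at 33.7, 39.5, 21.1 and 18.8 CPM, neither past a threshold. LRRK2 and RPH3AL entered the tested set only through their shGOLM1 counts, so their p-values are descriptions and are not support for a rise.

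All 8 genes for prenylation, escort and membrane extraction were tested. Either tool called 0 of them, beside 0.0% of all genes with edgeR and 3.88% with DESeq2. Both shGOLM1 libraries lay above both controls for 1 and below them for 2, beside 25.2% and 26.5% of all genes. RABGGTB, the beta subunit of the Rab geranylgeranyl transferase, stood at 174, 174, 88 and 148 CPM (log2 fold change -0.56, edgeR adjusted p = 0.557), and RABGGTA, the alpha subunit, at 25.3, 28, 28.7 and 59.7 CPM (0.73, adjusted p = 0.543). RABGGTB lay below both controls in both shGOLM1 libraries, and RABGGTA above them, in replicate 1 by little. RABIF, a guanine nucleotide-free chaperone of Rabs, stood at 51.1, 48.9, 36.4 and 28 CPM (-0.63, edgeR adjusted p = 0.474).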

How the data were processed

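RNA of 2 shscramble and 2 shGOLM1 libraries of SUP-M2 cells was extracted with a column kit and made into libraries with a SMARTER kit, per the labels' protocols. The table's counts, as deposited, are raw whole numbers. FPKM are the authors' values per gene length, used for levels between genes and never tested. The authors' mean signal per group was not used further. The authors' log2 fold change and p-value come from a tool not given in the sources used here, as are the aligner, the counter and its strand setting. Mouse builds (GRCm38, mm10) stand in the submitters' processing notes, yet all 58735 gene identifiers equal GENCODE 29 (human, GRCh38) in identifier, start and end. The 27 symbols changed to dates were restored by identifier.

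Groups follow the titles. Counts were tested with edgeR 4.0.16 (quasi-likelihood, two-sided, no covariate; limma 3.58.1, R 4.3.3), filterByExpr and TMM factors of 1.02, 1.05, 1.12 and 0.828, with Benjamini-Hochberg adjustment over 14166 genes and a threshold of 0.05, after checks on simulated data. Per-library differences use log2(CPM + 0.5). Totals of 27544171 to 31972153 counts put the limit of a 0 count (3 counts) at 0.0938 to 0.109 CPM. DESeq2 1.42.0 and the other alternatives are in the closing section. Figures were drawn with matplotlib 3.10.9.

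Named Rabs were those with a log2 fold change of at least 1, 5 CPM and groups that do not overlap, those DESeq2 called, those at 20 CPM or more on opposite sides of the controls, and the top 2 by FPKM of each role. Up to 4 regulators per class with the smallest p, 5 CPM and no overlap were named, and others in the text were picked after their values were seen. Members, roles and lists were chosen with earlier results of these data known. A count of 0 in both libraries of a group was set against 3 counts per library.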

Additional observations from a re-analysis of the deposited data

How the results depend on the processing

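With 2 libraries a group, the number of genes called turned on the test. Rab genes called were 0 with edgeR as planned, with DESeq2-type size factors, with library totals, a filter of 5 CPM in 2 libraries, limma-voom and a robust edgeR fit. The count was 1 (RAB17) without a filter, with DESeq2 and with edgeR's likelihood-ratio test. Regulators called were 4 (3.48%) without a filter, 6 (5.88%) with DESeq2 and 6 (5.88%) with the likelihood-ratio test. All genes called were 192 (0.759%), 539 (3.88%) and 496 (3.5%). LRRK2 and RPH3AL, which passed the planned filter only through their shGOLM1 counts, were among the regulators called each time. With replicate number as a block the counts were 1 (RAB17), 4 (3.92%) and 203 (1.43%), but the labels share only a number: deviations of same-numbered libraries correlated at -0.0977 and of crossed ones at 0.0977, so no pairing was shown. Leaving out 1 library gave 0 to 34 Rab genes, 0 to 76 regulators and 20 to 10290 genes, with the high counts only where an shGOLM1 library was left out: 34, 76 and 10290 without replicate 1 and 24, 48 and 6721 without replicate 2. Over the 41 named genes and all alternatives, 18 of 530 values turned direction. Near-level genes turned with the processing: RAB1B at 0.10 and RAB27A at 0.10 with the 5 CPM filter, and RAB2A at -0.11 with library totals, -0.057 without a filter, -0.027 with limma-voom and -0.015 with the block. Leaving out 1 library at a time turned RAB1A (-0.22 to 0.51), RAB1B (-0.12 to 0.014), RAB2A (-0.39 to 0.29), RAB33A (-0.78 to 2.34), RAB23 (-1.25 to 0.34), RAB20 (-0.73 to 1.25), RAB5A (-0.52 to 0.82), RAB38 (-0.89 to 1.24), RAB11A (-0.46 to 0.82), RAB11B (-0.29 to 0.73) and RAB27A (-0.24 to 0.13) on the log2 scale. The cause was not tested. Library totals in place of TMM shifted the median of all genes by -0.08. The 12 untested Rab genes with counts were too shallow for the filter.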
